A study of Homo sapiens with 12 samples.

Results

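The 10 genes described here encode the enzymes that add and remove the phosphate on eIF2alpha and the proteins they act on: the kinases EIF2AK1, EIF2AK2, EIF2AK3 and EIF2AK4, the GCN2 regulators GCN1 and IMPACT, the phosphatase subunits PPP1R15A and PPP1R15B, the substrate EIF2S1 and the exchange factor subunit EIF2B5. They were taken by gene name, by a rule that uses no measured value, although results of these data were known when the genes were listed, and all 10 were found among the 58735 gene names of the count tables and passed the filter on low counts in every comparison. RNA-seq was performed on 12 samples of the human neuroblastoma lines KELLY, which carries MYCN amplification, and SK-N-AS, which does not. Each line was treated for 24 h with DMSO, the vehicle, or with Erastin, at 1 µM in KELLY and 2 µM in SK-N-AS, with 3 samples in each of the 4 groups. Erastin blocks the cystine importer system xc- and is used to induce ferroptosis, an iron-dependent form of cell death. Each genotype was represented by 1 established line and the dose differed with the line, so that line, MYCN status and dose cannot be told apart.

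eIF2 delivers the initiator tRNA to the ribosome, and the guanine nucleotide exchange factor eIF2B recharges it with GTP. The 4 kinases, each activated by a different stress, phosphorylate the alpha subunit of eIF2, which turns eIF2 into an inhibitor of eIF2B, lowers general protein synthesis and favours translation of a few mRNAs such as that of ATF4. This is the integrated stress response (ISR), and it is ended by protein phosphatase 1 (PP1), which is directed to eIF2alpha by PPP1R15A or PPP1R15B. The kinases are switched on by binding of ligands and by phosphorylation, neither of which is read by RNA-seq, so the values below are mRNA levels and not kinase activity.

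Total counts per library ranged from 24169796 to 29835670. Levels are given as CPM, counts scaled to library size with TMM factors, and errors are SD over 3 samples unless stated. Adrenergic neuroblastoma markers were higher in KELLY than in SK-N-AS for 8 of 8 genes, and mesenchymal markers lower for 6 of 6. Of the blood cell markers, CD3E and LYZ had 0 counts in all libraries and CD14 at most 19 counts, whereas PTPRC (CD45) had 0 counts in KELLY and 487 to 620.3 CPM in SK-N-AS DMSO libraries; its part in the results was not tested. Libraries of the same group differed in a trend with the GC content of genes. The rank correlation between a gene's GC content and its log2 ratio to the mean of the line ran from -0.83 to 0.87 over the 6 KELLY libraries (12849 genes) and from -0.74 to 0.76 over the 6 SK-N-AS libraries (12700 genes). Values with this trend removed are therefore given beside Erastin results that it moved. The biological coefficient of variation was 0.198 in KELLY and 0.0861 in SK-N-AS, so that differences were measured less precisely in KELLY.

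No member passed an adjusted p under 0.05 with Erastin in either line (edgeR quasi-likelihood test, Benjamini-Hochberg over all genes tested). None passed the study's threshold of an unadjusted p of at most 0.05 with a fold change of at least 1.5 either. The study applied that threshold to DESeq2 results for protein-coding genes, whereas edgeR results for all genes tested were used here. The background was low for the first rule, at 0.00615% of 16258 genes in KELLY and 0.659% of 16095 in SK-N-AS, and was 2.03% and 2.67% for the second. At an unadjusted p of at most 0.05 alone, 0 members were counted in KELLY, where 2.64% of genes were, and 3 in SK-N-AS, where 8.77% were. DESeq2 called 0 members in KELLY and 1, PPP1R15B, in SK-N-AS at an adjusted p under 0.05, against 0.191% and 1.39% of all genes. With the GC trend removed, edgeR called 0 members in KELLY and 2, PPP1R15B and EIF2B5, in SK-N-AS, against 0.215% and 6.56% of all genes. In bulk RNA, fewer cells with a transcript and less of it per cell cannot be told apart. The lowest and highest log2 fold changes were -0.25 and 0.71 in KELLY, and -0.23 and 0.35 in SK-N-AS. Their median over the 10 genes was -0.10 in KELLY and 0.02 in SK-N-AS, beside 0.01 and -0.01 over all genes tested, with 4 genes above 0 in KELLY and 6 in SK-N-AS.

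**Figure D1:**
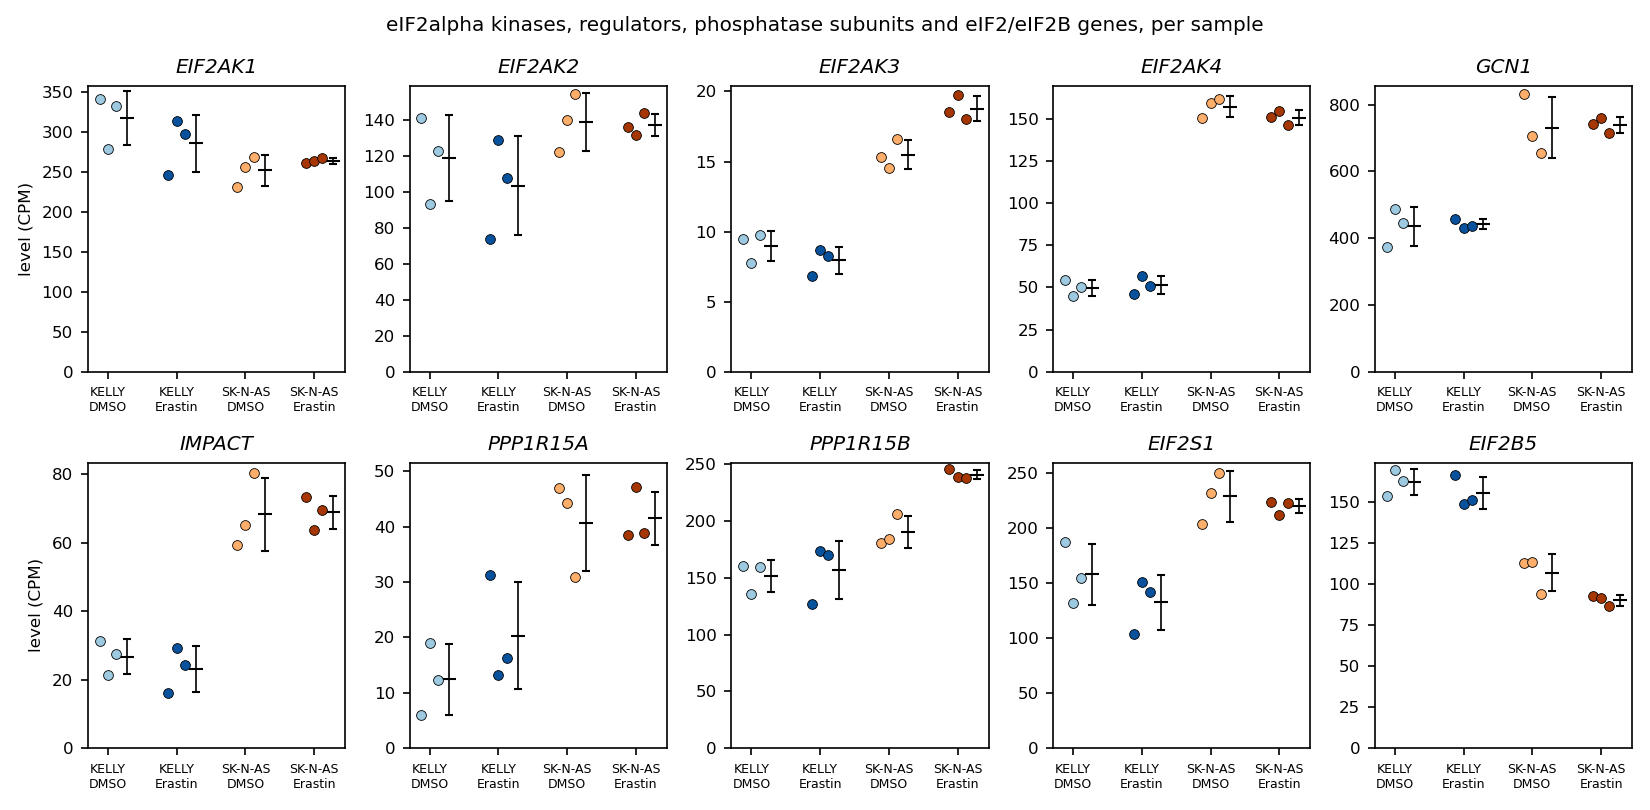
Level in CPM (vertical axes, from 0) of the 10 genes in each of the 12 samples, by line and treatment; points are samples in replicate order, horizontal bars the mean and vertical bars the SD. The SK-N-AS Erastin points of PPP1R15B and EIF2AK3 lie above, and those of EIF2B5 below, all SK-N-AS DMSO points, while KELLY points of DMSO and Erastin overlap in every panel.

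The phosphatase subunits differed in what they showed. PPP1R15B (CReP), the constitutive PP1 targeting subunit, is a gene on the minus strand of GRCh38 at chr1:204396492-204411887. In SK-N-AS it was read at 180.3, 184 and 206 CPM with DMSO and at 246, 239 and 238 CPM with Erastin. All Erastin samples were above all DMSO samples, and the log2 fold change was 0.35 ± 0.08 (SE; 1.27-fold, 95% interval 0.17 to 0.53 on the log2 scale). The adjusted p of the edgeR test was 0.102, which missed the threshold, and the unadjusted p was 0.00103. The direction of PPP1R15B held in all 13 alternatives and the value stayed between 0.31 and 0.41, but it was called in only 6 of them. The adjusted p was 0.0192 with DESeq2 and 1.15e-04 in edgeR with the GC trend removed. Without 1 library the edgeR adjusted p ran from 9.46e-04 to 0.552, and the highest of the 13 was above that range. The 9.46e-04 was obtained without SK-N-AS DMSO replicate 3, the library with the most negative GC trend of that line. In KELLY, PPP1R15B was read at 160.2, 136 and 159.4 CPM with DMSO and at 127, 174 and 169.7 CPM with Erastin. These groups overlapped (log2 fold change 0.05 ± 0.17, edgeR adjusted p = 0.909).

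PPP1R15A (GADD34), the inducible PP1 targeting subunit and a textbook transcriptional target of the ISR, lies on the plus strand at chr19:48872212-48876059. In SK-N-AS it was read at 47.0, 44.3 and 30.8 CPM with DMSO and at 38.5, 47.1 and 38.8 CPM with Erastin. The groups overlapped, with a log2 fold change of 0.04 ± 0.15 and a 95% interval of -0.28 to 0.36. With the GC trend removed, the interval of the PPP1R15A change narrowed to -0.09 to 0.23. In KELLY, PPP1R15A had 156, 466 and 352 counts in the DMSO libraries and 763, 342 and 450 in the Erastin libraries, or 6.07, 18.9 and 12.3 CPM against 31.3, 13.3 and 16.3 CPM. One Erastin library stood above the rest and 1 DMSO library below, and the other 4 overlapped. The fold change was the largest of the 10 genes in size and also the least precise, at 0.71 ± 0.46 on the log2 scale (95% interval -0.35 to 1.77, edgeR adjusted p = 0.770). It was 0.46 ± 0.24 with the GC trend removed. Without 1 library it ran from 0.25, when KELLY Erastin replicate 1 was left out, to 1.14, when KELLY DMSO replicate 2 was. In the latter PPP1R15A passed the study's threshold, as did 996 of 16859 genes, where 330 of 16258 did with all libraries. A missed threshold in either line does not show that PPP1R15A was unchanged.

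PPP1R15A transcript made up 15.4% ± 8.0 of the PPP1R15A and PPP1R15B total per kb of transcript in KELLY DMSO samples and 22.6% ± 11.3 in KELLY Erastin samples. In SK-N-AS the share was 32.3% ± 6.3 with DMSO and 27.8% ± 2.5 with Erastin. PPP1R15B was thus the more abundant subunit per length in all 4 groups, and the ranges of DMSO and Erastin shares overlapped in both lines. The 5 genes whose profile over the 12 samples was closest to that of PPP1R15A, by the root mean square difference of log2 CPM centred on each line's DMSO mean among 13094 genes, were CUEDC2 (0.0833), CTSD (0.0859), ASL (0.0873), FBRS (0.0927) and COX6A1 (0.0930). Their canonical transcripts held 52.9% to 65.6% GC, near the 59.0% of PPP1R15A. The profiles were taken with the GC trend left in, so this closeness cannot be read apart from GC content.

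The promoters of both subunits are shown because PPP1R15A is a known ISR target, and 8 of the 10 ISR genes described below rose in SK-N-AS. They are the 250 bases before the RefSeq gene start (GRCh38.p14), read 5′ to 3′ on the gene's strand, and each overlaps the start of the GENCODE gene. Capitals mark a motif. PPP1R15A is at chr19:48872171-48872420 (plus strand) and PPP1R15B at chr1:204411818-204412067 (minus strand).
PPP1R15A: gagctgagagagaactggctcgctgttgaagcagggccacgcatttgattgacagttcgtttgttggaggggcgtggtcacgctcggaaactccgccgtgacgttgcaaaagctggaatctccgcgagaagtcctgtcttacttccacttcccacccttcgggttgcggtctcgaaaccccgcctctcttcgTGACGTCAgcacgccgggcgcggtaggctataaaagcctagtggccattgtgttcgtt
PPP1R15B: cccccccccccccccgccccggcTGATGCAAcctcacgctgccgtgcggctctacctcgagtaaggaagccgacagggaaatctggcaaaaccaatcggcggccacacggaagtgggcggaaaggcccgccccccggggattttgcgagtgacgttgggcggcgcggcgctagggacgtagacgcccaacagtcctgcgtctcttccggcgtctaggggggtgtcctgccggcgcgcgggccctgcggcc
RefSeq promoters were found for 9 of the 10 genes, and EIF2AK1 had none in the table. On both strands 3 motifs were searched: TGATGNAAT, the C/EBP-ATF response element, present in 0.888% of 35116 promoters of this length; the interferon-stimulated response element (GAAA, any 2 bases, GAAA), in 3.02%; and the ER stress response element (CCAAT, any 9 bases, CCACG), in 0.074%. None of the 9 windows held any of them. Only the 250 bases before the RefSeq start were searched, so this does not show that a gene lacks a motif. The windows of EIF2AK2, EIF2AK3 and EIF2B5 lay wholly inside the GENCODE gene, downstream of its start. A further pair of motifs was added after these promoters were seen. TGACGTCA, the cAMP response element, present in 1.65% of promoters, was found in that of PPP1R15A starting 58 bases before the gene start. TGATGNAA, a shorter form contained in every match of the first motif and present in 3.14%, was found in that of PPP1R15B as TGATGCAA, 227 bases before the gene start. These are matches of letters and were not tested as binding sites.

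**Figure D2:**
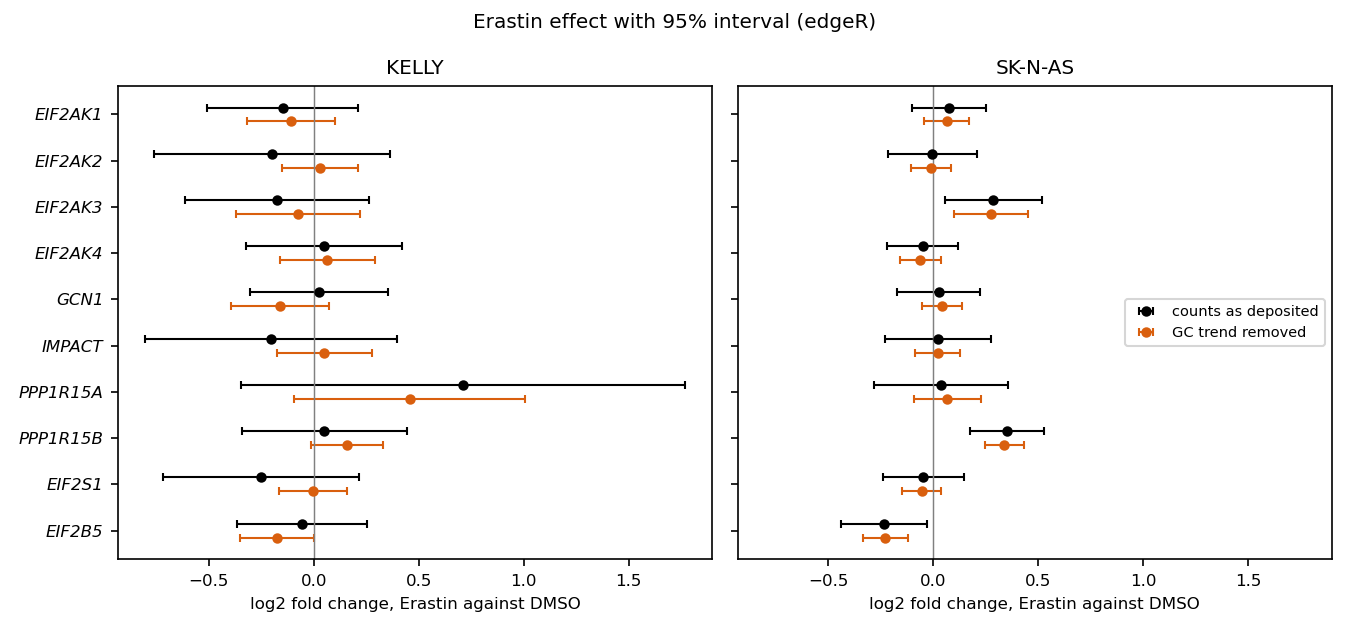
Log2 fold change of Erastin against DMSO (horizontal axis, with 95% interval, n = 3 per group) for the 10 genes in KELLY and SK-N-AS, from the counts as deposited (black) and with the GC trend of each library removed (orange). In SK-N-AS the intervals of PPP1R15B, EIF2AK3 and EIF2B5 exclude 0 under both, and in KELLY PPP1R15A has the widest interval.

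Among the kinases, EIF2AK3 (PERK), the sensor of unfolded protein in the endoplasmic reticulum, had the largest Erastin difference in SK-N-AS. It lies on the minus strand at chr2:88556741-88691518 and was the least abundant of the 10 genes per kb in every group. EIF2AK3 was read at 15.3, 14.6 and 16.6 CPM with DMSO and at 18.5, 19.7 and 18.0 CPM with Erastin in SK-N-AS. The groups did not overlap, and the log2 fold change was 0.29 ± 0.11 (edgeR unadjusted p = 0.0199, adjusted p = 0.421). With the GC trend removed the EIF2AK3 value was 0.27 and the edgeR adjusted p 0.0582. In KELLY the EIF2AK3 values were 9.49, 7.76 and 9.73 CPM with DMSO and 6.85, 8.72 and 8.26 CPM with Erastin. These overlapped, with a log2 fold change of -0.18 ± 0.19, or -0.08 ± 0.13 with the GC trend removed. The difference between the EIF2AK3 effects of the lines, tested as an interaction, was 0.46 ± 0.20 (unadjusted p = 0.0432, edgeR adjusted p = 0.811), so no difference between the lines was shown. At an adjusted p under 0.05 the interaction was called for 0 of the 10 genes by edgeR, which called 0.00548% of 18239 genes, and for 0 by DESeq2, which called 0.0658%. At an unadjusted p of at most 0.05 the interaction of 1 member, EIF2AK3, was counted, where 4.25% of genes were.

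EIF2AK4 (GCN2), the sensor of amino acid shortage that binds uncharged tRNA, is on the plus strand at chr15:39934115-40035591. It was read at 54.4, 44.9 and 50.1 CPM with DMSO and at 46.2, 57.1 and 51.0 CPM with Erastin in KELLY. In SK-N-AS it was read at 150.2, 159.7 and 162 CPM with DMSO and at 151, 155 and 146 CPM with Erastin. The treatment groups overlapped in both lines, and the EIF2AK4 log2 fold changes were 0.05 ± 0.16 and -0.05 ± 0.08. The 95% interval of the EIF2AK4 change in SK-N-AS was -0.22 to 0.12. GCN1, a ribosome-bound activator of GCN2 (chr12:120127202-120194715, minus strand), was read at 373, 489 and 445 CPM in KELLY DMSO and at 458, 429 and 438 CPM in KELLY Erastin samples. In SK-N-AS the GCN1 values were 833, 705 and 656 CPM with DMSO and 744, 759 and 714 CPM with Erastin. Both pairs of groups overlapped, with log2 fold changes of 0.02 ± 0.14 and 0.02 ± 0.09. IMPACT, which competes with GCN2 for GCN1 and so restrains the kinase, is on the plus strand at chr18:24426634-24453531. It was read at 31.3, 21.3 and 27.6 CPM in KELLY DMSO and at 16.0, 29.4 and 24.2 CPM in KELLY Erastin samples, and at 59.4, 65.3 and 80.2 CPM against 73.3, 63.8 and 69.6 CPM in SK-N-AS. The IMPACT groups overlapped in both lines, with log2 fold changes of -0.20 ± 0.26 and 0.02 ± 0.12.

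EIF2AK1 (HRI), the kinase that senses haem shortage and, through DELE1, mitochondrial stress, lies on the minus strand at chr7:6022247-6059175. It was read at 341, 278 and 332 CPM with DMSO and at 246, 314 and 297 CPM with Erastin in KELLY. In SK-N-AS the EIF2AK1 values were 231, 256 and 268 CPM with DMSO and 260.5, 263 and 267 CPM with Erastin. The groups overlapped in both lines, and the log2 fold changes of EIF2AK1 were -0.15 ± 0.15 and 0.08 ± 0.08. EIF2AK2 (PKR), the sensor of double-stranded RNA and itself an interferon-stimulated gene, is on the minus strand at chr2:37099210-37157522. It was read at 141, 93.2 and 122 CPM with DMSO and at 73.9, 129 and 107 CPM with Erastin in KELLY, and at 122, 139.6 and 154 CPM against 136, 131 and 144 CPM in SK-N-AS. The EIF2AK2 groups overlapped in both lines, with log2 fold changes of -0.20 ± 0.24 and -0.01 ± 0.10.

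Of the substrate and the exchange factor, EIF2B5, the catalytic epsilon subunit of eIF2B, was the member whose Erastin samples all read below its DMSO samples in SK-N-AS. It lies on the plus strand at chr3:184135038-184146127. EIF2B5 was read at 113, 113 and 93.9 CPM with DMSO and at 92.7, 91.5 and 86.4 CPM with Erastin, so that the groups did not overlap and the lowest DMSO sample was close to the highest Erastin sample. The log2 fold change was -0.23 ± 0.09 (edgeR unadjusted p = 0.0290, adjusted p = 0.472). With the GC trend removed it was -0.23 with an edgeR adjusted p of 0.0107, and without 1 library it ran from -0.32, with an adjusted p of 0.0149 when SK-N-AS DMSO replicate 3 was left out, to -0.18, with an adjusted p of 0.999 when SK-N-AS DMSO replicate 2 was. In KELLY the EIF2B5 values were 154, 169 and 163 CPM with DMSO and 166, 149 and 151 CPM with Erastin, which overlapped (log2 fold change -0.06 ± 0.13). EIF2S1, the gene of eIF2alpha itself, is on the plus strand at chr14:67360328-67386516. It was read at 188, 132 and 154 CPM with DMSO and at 104, 151 and 142 CPM with Erastin in KELLY, and at 204, 232 and 250.3 CPM against 224, 212 and 223 CPM in SK-N-AS. The EIF2S1 groups overlapped in both lines, with log2 fold changes of -0.25 ± 0.20 and -0.05 ± 0.09. Counted over all 10 genes, the treatment groups did not overlap for 0 members in KELLY, where they did not for 8.54% of genes. In SK-N-AS they did not overlap for 3 members, where they did not for 14.8% of genes. Of the 3, Erastin was higher for 2, PPP1R15B and EIF2AK3, beside 6.98% of genes, and lower for 1, EIF2B5, beside 7.81%.

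In KELLY the levels of several members were ordered by the GC trend of the libraries. From the library with the most negative trend to that with the most positive, the order was DMSO replicate 1 (-0.83), Erastin replicate 2 (-0.65), DMSO replicate 3 (-0.46), Erastin replicate 3 (0.23), DMSO replicate 2 (0.68) and Erastin replicate 1 (0.87). EIF2AK2, with 38.5% GC in its canonical transcript, fell along that order from 141 through 129, 122, 107 and 93.2 to 73.9 CPM. IMPACT, the member lowest in GC at 37.4%, fell along it from 31.3 through 29.4, 27.6, 24.2 and 21.3 to 16.0 CPM. Both orders were unbroken and DMSO and Erastin libraries alternated in them. EIF2S1, with 38.3% GC, read 188, 151, 154, 142, 132 and 104 CPM in the same order. PPP1R15A, the member highest in GC, read 6.07, 13.3, 12.3, 16.3, 18.9 and 31.3 CPM, in the opposite direction. With the trend removed, the EIF2S1, EIF2AK2 and IMPACT log2 fold changes in KELLY moved from -0.25, -0.20 and -0.20 to -0.00, 0.03 and 0.05. Those of GCN1, EIF2B5 and PPP1R15B moved from 0.02, -0.06 and 0.05 to -0.16, -0.17 and 0.16, and none of the 6 was called either way. The SD of log2 CPM within groups went from 0.27 to 0.06 for EIF2S1, from 0.36 to 0.09 for EIF2AK2, from 0.37 to 0.10 for IMPACT and from 0.74 to 0.42 for PPP1R15A. It changed little for GCN1 (0.144 to 0.148), EIF2B5 (0.079 to 0.075) and EIF2AK4 (0.146 to 0.130). With the trend removed, the PPP1R15A values of KELLY were 8.57, 16.8 and 13.0 CPM with DMSO and 22.4, 14.7 and 15.6 CPM with Erastin, which still overlapped.

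**Figure D3:**
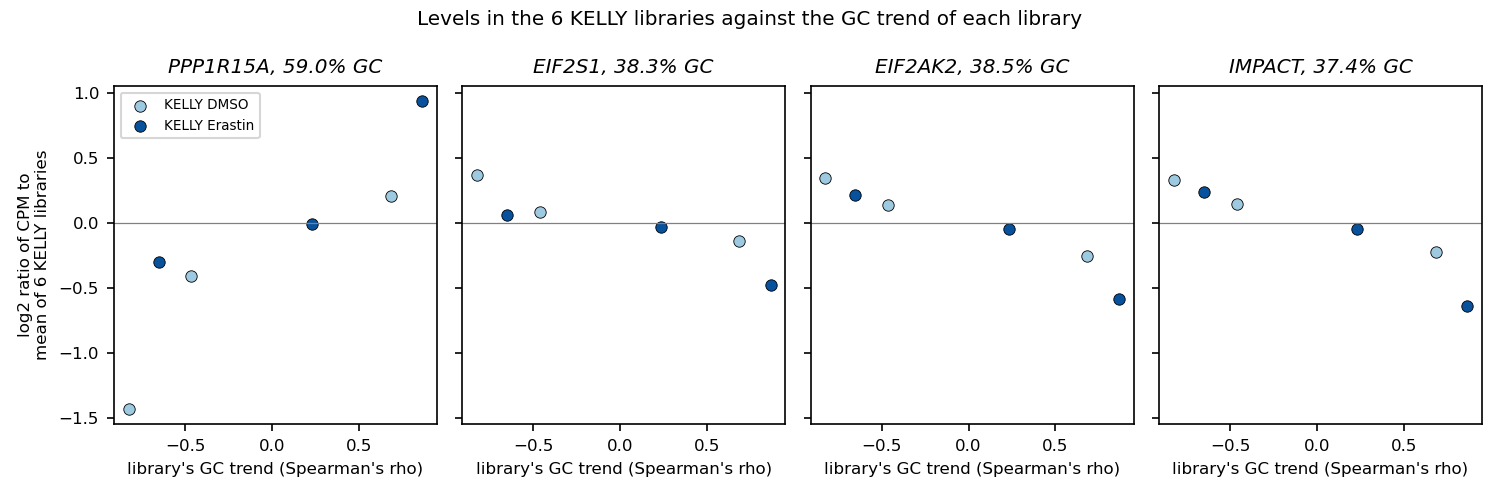
Log2 ratio of CPM to the mean of the 6 KELLY libraries (vertical axis) against the GC trend of each library (horizontal axis, Spearman's rho across 12849 genes) for the member highest in GC and the 3 lowest; light points are DMSO and dark points Erastin. PPP1R15A is lowest at the left and highest at the right, EIF2S1, EIF2AK2 and IMPACT the reverse, with DMSO and Erastin libraries mixed along the axis.

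The control levels of the 10 genes were compared between the lines. The median size of the log2 difference was 0.67 between KELLY and SK-N-AS DMSO samples, beside 0.16 with Erastin in KELLY and 0.05 with Erastin in SK-N-AS, and over all genes tested these medians were 0.82, 0.23 and 0.11. KELLY DMSO and SK-N-AS DMSO samples differed at an adjusted p under 0.05 for 8 of the 10 genes, 2 higher in KELLY and 6 lower, where 61.3% of 17089 genes passed, 30.9% higher and 30.3% lower, so the share was not far from that of all genes. The groups did not overlap for 9 members, against 66.3% of all genes: KELLY was higher for 2 of them, against 32.8%, and lower for 7, against 33.5%. The median log2 difference, KELLY minus SK-N-AS, was -0.63 over the 10 genes and 0.02 over all genes.

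EIF2AK4 and its regulators were all lower in KELLY. EIF2AK4 was 3.13-fold lower, at 49.8 ± 4.7 against 157 ± 6.2 CPM (log2 difference -1.64 ± 0.13, edgeR adjusted p = 9.68e-06), and the KELLY values of 44.9 to 54.4 CPM were all below the SK-N-AS values of 150.2 to 162 CPM. IMPACT was 2.53-fold lower (log2 difference -1.34 ± 0.19, edgeR adjusted p = 3.27e-04) and GCN1 1.66-fold lower (-0.73 ± 0.15, adjusted p = 0.00238). EIF2AK3 was 1.70-fold lower, at 8.99 ± 1.07 against 15.5 ± 1.05 CPM (edgeR adjusted p = 0.00368). PPP1R15A was 3.24-fold lower, at 12.4 ± 6.4 against 40.7 ± 8.7 CPM (log2 difference -1.70 ± 0.37, edgeR adjusted p = 0.00354), and this difference was between -1.36 and -2.13 when 1 library was left out. EIF2S1 was 1.43-fold lower (edgeR adjusted p = 0.0207), a call that was lost without KELLY DMSO replicate 3 (0.0743) and without SK-N-AS DMSO replicate 2 (0.0669) or 3 (0.0715).

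Higher in KELLY were EIF2B5, at 1.53-fold (log2 difference 0.61 ± 0.13, edgeR adjusted p = 0.00339), and EIF2AK1, at 1.27-fold (0.35 ± 0.13, adjusted p = 0.0478). The EIF2AK1 call was marginal: DESeq2, which called 62.9% of all genes, gave an adjusted p of 0.0559, and it was lost without any 1 library except KELLY DMSO replicate 2, with adjusted p from 0.0618 to 0.175, while the groups did not overlap and the adjusted p was 0.00494 with the GC trend removed. The PPP1R15B groups did not overlap either, with KELLY lower (log2 difference -0.31 ± 0.13), but the edgeR adjusted p was 0.0664. EIF2AK2 overlapped between the lines (-0.21 ± 0.18, edgeR adjusted p = 0.336). With the GC trend removed, these were -0.38 with an edgeR adjusted p of 3.76e-04 for PPP1R15B and -0.35 with 9.34e-04 for EIF2AK2. With that setting 73.7% of all genes passed. The trend was taken from ratios to the mean of each line, so a GC-dependent difference between the lines was not removed. This holds for the EIF2AK1 value too.

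**Figure D4:**
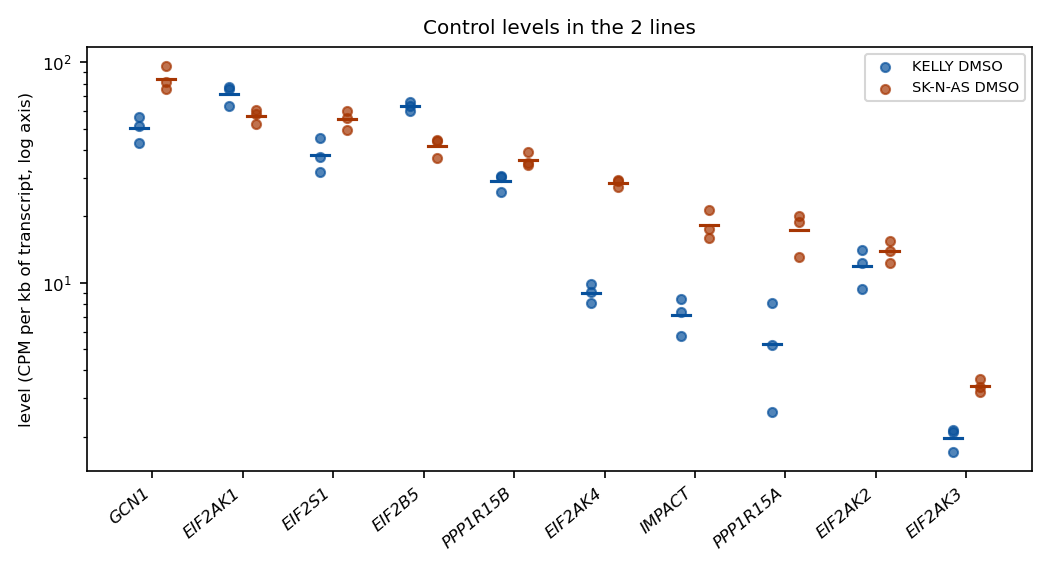
Level in CPM per kb of canonical transcript (vertical log axis) of the 10 genes in KELLY and SK-N-AS DMSO samples, ordered by the SK-N-AS mean; points are the 3 samples of each line and horizontal bars the mean. EIF2AK4, IMPACT, PPP1R15A and EIF2AK3 lie lower in KELLY without overlap, and EIF2AK3 is the lowest gene in both lines.

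Per kb of canonical transcript, EIF2AK1 was the most abundant kinase in both lines. In KELLY DMSO samples the order of levels was EIF2AK1 (71.9 ± 7.7 CPM per kb), EIF2B5 (63.2 ± 3.0), GCN1 (50.2 ± 6.7), EIF2S1 (38.0 ± 6.7), PPP1R15B (28.9 ± 2.6), EIF2AK2 (11.9 ± 2.4), EIF2AK4 (8.99 ± 0.85), IMPACT (7.17 ± 1.35), PPP1R15A (5.29 ± 2.74) and EIF2AK3 (1.98 ± 0.24). Neighbours overlapped in that order between EIF2AK1 and EIF2B5, GCN1 and EIF2S1, and successively from EIF2AK2 to PPP1R15A. In SK-N-AS DMSO samples GCN1 led at 84.3 ± 10.5 CPM per kb, before EIF2AK1 (57.1 ± 4.3), EIF2S1 (55.1 ± 5.6), EIF2B5 (41.7 ± 4.4), PPP1R15B (36.2 ± 2.7), EIF2AK4 (28.4 ± 1.1), IMPACT (18.3 ± 2.9), PPP1R15A (17.3 ± 3.7), EIF2AK2 (13.9 ± 1.6) and EIF2AK3 (3.42 ± 0.23). There EIF2AK1 overlapped with EIF2S1, EIF2B5 with PPP1R15B, IMPACT with PPP1R15A and PPP1R15A with EIF2AK2. The canonical transcript of EIF2AK2 is the longest of the 10, at 9975 bases, and a shorter form in these cells would raise its level per kb.

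As a share of the 4 kinase mRNAs per kb, EIF2AK1 made up 75.9% ± 0.98 in KELLY DMSO and 55.5% ± 0.40 in SK-N-AS DMSO samples. EIF2AK4 made up 9.51% ± 0.36 and 27.7% ± 0.86. EIF2AK2 took 12.5% ± 1.1 and 13.5% ± 0.64, and EIF2AK3 2.09% ± 0.07 and 3.33% ± 0.24. With Erastin the EIF2AK4 share was 10.3% to 11.4% in KELLY, above the 9.15% to 9.87% of DMSO. In SK-N-AS it was 25.1% to 26.6%, below the 26.8% to 28.5% of DMSO. The EIF2AK3 share was 3.77% to 4.14% in SK-N-AS Erastin samples and 3.08% to 3.55% in DMSO samples. That of EIF2AK1 was 56.7% to 57.4% in SK-N-AS Erastin samples and 55.1% to 55.8% in DMSO samples. The remaining shares overlapped between treatments. The CPM of EIF2AK4 and EIF2AK1 overlapped in both lines, and a share also moves with the levels of the other kinases. How often such shares separate for other genes was not counted. These shares are given as a description, with no test.

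Other genes of the pathway were read from lists. Among 12 partners in the eIF2 and eIF2B complexes and in tRNA delivery, 9 kinase regulators and 3 PP1 catalytic subunits, 0 passed the adjusted threshold with Erastin in either line, and 0 passed the study's threshold. The closest was EIF2S2, the beta subunit of eIF2, in SK-N-AS (log2 fold change 0.43 ± 0.09, edgeR adjusted p = 0.0502). Between DMSO samples, 1 of the 12 partners was higher in KELLY, EIF2B4 (log2 difference 0.81), where 30.9% of all genes were, and 5 were lower, where 30.3% were, EIF2B2 (-1.30), EIF2B1 (-0.76), DENR (-0.60), CDC123 (-0.55) and EIF5 (-0.51). Read against the same shares, 3 of the 9 kinase regulators, HSPA5, the chaperone that holds PERK inactive (-0.82), DNAJC3, an inhibitor of PKR and PERK (-0.63), and MAP3K20, the ribosome collision kinase (-0.80), were lower in KELLY and 0 were higher. Of the 3 PP1 catalytic subunits, PPP1CB was higher (0.90) and PPP1CA lower (-0.87) in KELLY. Of 11 interferon-stimulated genes tested, 11 were lower in KELLY, where 30.3% of all genes were. Their log2 differences included -1.32 for OAS1 and -2.57 for OAS3. EIF2AK2, which belongs to the same kind of gene, differed by -0.21 and was not called. With the GC trend within each line removed, EIF2AK2 was called at -0.35. With Erastin, the adjusted threshold was passed by 0 of 6 interferon-stimulated genes tested in KELLY and 0 of 11 in SK-N-AS.

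The ISR output list holds transcripts known to rise downstream of eIF2alpha phosphorylation. Of 10 ISR output genes tested in SK-N-AS, 8 rose at an adjusted p under 0.05, where 0.46% of all genes rose, and the median log2 fold change over the 10 was 1.27. They included CHAC1, a glutathione-degrading enzyme (4.56 ± 0.23, edgeR adjusted p = 1.55e-06), ASNS, asparagine synthetase (2.28 ± 0.34), ATF4 (1.51 ± 0.09), SESN2 (1.47 ± 0.16), ATF3 (1.07 ± 0.17), TRIB3 (1.06 ± 0.13) and CEBPG (0.87 ± 0.09). The other of the 8 was NUPR1, which had 1 to 2 counts per DMSO library and 21 to 63 per Erastin library. The remaining ISR genes were DDIT3 (CHOP), at 0.54 ± 0.18 with an edgeR adjusted p of 0.343, and ATF5, at 0.02 ± 0.13. In KELLY, 0 of 9 ISR genes tested passed the adjusted threshold, and 6 passed the study's threshold upward, where 1.29% of genes did, with a median of 0.81 over the 9 and CHAC1 at 2.94 ± 0.30 (edgeR adjusted p = 0.0902). Between DMSO samples, 6 of 9 ISR genes were higher in KELLY, where 30.9% of all genes were, among them ATF4 (log2 difference 1.38) and CHAC1 (2.14). Lower in KELLY were 2, ATF5 (-1.34) and TRIB3 (-0.87), where 30.3% of all genes were. PPP1R15A, the phosphatase gene of the same programme, was lower in KELLY.

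**Figure D5:**
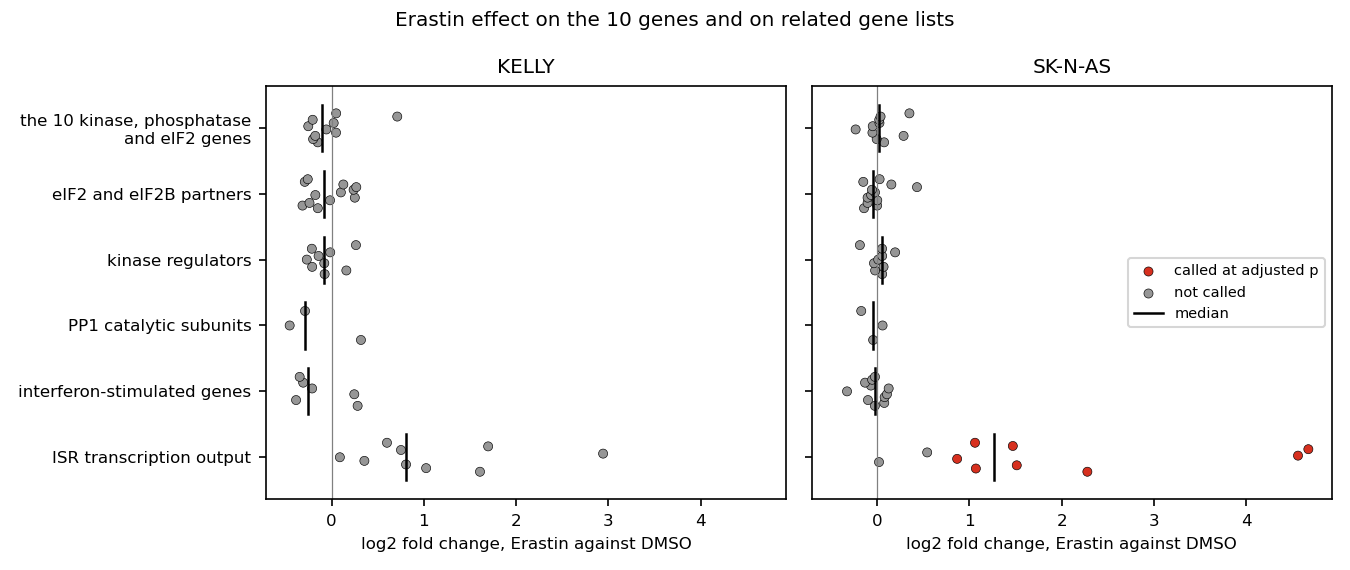
Log2 fold change of Erastin against DMSO (horizontal axis) for the 10 genes and 5 related lists in KELLY and SK-N-AS; points are genes, red where the adjusted p was under 0.05, and vertical bars are medians. The ISR output genes lie to the right of 0 in both lines, with 8 red points in SK-N-AS, and the other lists lie around 0.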

How the data were processed

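The deposited values are raw counts per gene in 1 table per line; the authors trimmed paired-end reads (Trimmomatic), aligned them to GRCh38 and counted them with HTSeq on a GENCODE annotation, and the aligner is not given in the sources used here. All 12 samples are described in the sources as triplicates, and no library was a copy of another. The study's RNA-seq methods describe cells seeded in triplicate wells, so SD and SE may measure spread between parallel wells. Counts were analysed in R 4.3.3 with edgeR 4.0.16 (filterByExpr defaults, TMM, quasi-likelihood test, Benjamini-Hochberg over all genes tested), each line separately, DMSO samples between lines, and the interaction over all samples. SE was derived from the F statistic. GC content and length came from Ensembl canonical transcripts of GENCODE release 44, with 36194 names matched by symbol and 869 by an older symbol, covering 85.6% to 88.2% of the genes tested; the GC trend was removed by a loess offset per library (span 0.5). DESeq2 1.42.0, other scaling, no filter, the replicate block, 1 fit of all samples and leaving out each library were alternatives. The script was tested on simulated data. The 10 genes and all lists were chosen with earlier results of these data known. The named genes were the 10, the called genes of each list and, for PPP1R15A, the 5 closest profiles.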

Additional observations from a re-analysis of the deposited data

Results flagged for a closer look

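For EIF2AK3 and EIF2AK1, all 3 KELLY Erastin samples lay below the mean of their DMSO samples, and all 3 SK-N-AS Erastin samples lay above theirs. The share of all genes with such opposite patterns was not counted. The Erastin effect in SK-N-AS minus that in KELLY was 0.46 on the log2 scale for EIF2AK3 (unadjusted p = 0.0432) and 0.22 for EIF2AK1 (unadjusted p = 0.218). Both were tested as an interaction in edgeR and neither passed, with an adjusted p of 0.811 for each. With the GC trend removed the EIF2AK3 difference was 0.34 (edgeR adjusted p = 0.576) and the EIF2AK1 difference 0.16. Without any 1 library the EIF2AK3 difference was 0.36 to 0.55.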

How the results depend on the processing

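Between DMSO samples, 0 of 130 values of the 10 genes changed direction over the alternatives, 13 lost their call and 7 gained one. EIF2S1 was lost with the replicate block too (edgeR adjusted p = 0.0604), as was EIF2AK1 (0.138). In the Erastin comparisons, 14 of 130 values in KELLY and 13 of 130 in SK-N-AS changed sign, none of them called before or after, and 10 SK-N-AS values that had missed the adjusted threshold passed it. The number of members called with Erastin in SK-N-AS was 0, but 1 with DESeq2, with no filter on low counts and with the replicate block, 2 with the GC correction (6.56% of all genes) and 3, PPP1R15B, EIF2B5 and EIF2AK3 (0.27, adjusted p = 0.0358 in edgeR), with the replicate block and GC correction together (11.4% of all genes). The 1 was PPP1R15B, and the genes called were 1.39% with DESeq2, 265 of 30711 with no filter and 308 of 16095 with the block. Leaving out 1 library gave 0 to 2. Past the study's threshold in KELLY there was 1 member, PPP1R15A, with no filter, where 980 of 30593 genes passed, and leaving out 1 library gave 0 to 1.

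Over all genes, the 1 called in KELLY became 31 with DESeq2, 19 with no filter, 35 with the GC correction, 5 with the replicate block and GC correction, 17 in 1 fit of all samples and 0 with the replicate block, and 0 to 2 without 1 library. Past the study's threshold in KELLY, 330 genes became 980 with no filter, 114 with the replicate block, 196 with block and GC correction, 767 in 1 fit of all samples and 197 to 996 without 1 library. In SK-N-AS, 106 called genes became 223 with DESeq2, 265 with no filter, 308 with the replicate block, 1056 with the GC correction, 1832 with block and GC correction, 46 in 1 fit of all samples and 53 to 855 without 1 library. Past the study's threshold there, 429 became 851 with no filter. For the interaction, 1 gene became 12 with DESeq2, 8 with no filter, 18 with the GC correction, 13 with block and GC correction and up to 3 without 1 library. The cause of these shifts was not tested.

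Deviations of same-numbered samples correlated at -0.66, -0.68 and -0.08 in KELLY and at -0.05, 0.11 and 0.24 in SK-N-AS. GC trends of same-numbered KELLY libraries were opposite in sign (-0.83 and 0.87, 0.68 and -0.65, -0.46 and 0.23). The KELLY correlations therefore do not decide whether replicate numbers marked pairs. With the replicate block the biological coefficient of variation was 0.0727 for SK-N-AS, lower than the 0.0861 without it. For KELLY the block gave 0.266, higher than 0.198. Pairing of samples was not tested further. As to depth, the lowest count of a member in a library was 156, for PPP1R15A.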
